A study of Mus musculus with 4 samples.

Results

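The extracellular proteases of the Mmp and Adamts families and their Timp inhibitors were followed in 4 macrodissected lung tumors of KP mice, a model of lung adenocarcinoma. The genes were taken by symbol, as every gene of the count table named Mmp, Adamts or Timp followed by its number, which gave 46 of 39017 genes, namely 23 Mmp, 19 Adamts and 4 Timp genes. All 4 tumors belonged to 1 control group, so that no conditions were compared and the spread between tumors was the measurement. Per the labels, the mice were C57BL/6 males carrying K-ras LSL-G12D/WT and p53 Fl/Fl, they received 1500 units of lenti.PGK-Cre into the trachea, and tumors were taken after 22 weeks and 5 days and dissociated into single cells before RNA extraction. The labels add a heterozygous fl/wt allele of a gene they do not name, the columns of the log2 table are marked WT, and in the methods the control mice had no floxed Slc2a1 allele or a heterozygous one. The PGK promoter is not restricted to a cell type, and the labels do not tell whether each tumor came from its own mouse. Each tumor was 1 library of stranded, polyA-selected RNA with 8151613 to 8799007 counts, of which the 46 genes took 0.128 to 0.147%.

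Matrix metalloproteinases are zinc proteases, secreted or held at the cell surface, that are made as inactive precursors and cut collagens, proteoglycans, elastin and basement membrane proteins once activated. Adamts proteases are secreted relatives with thrombospondin repeats that cut proteoglycans, trim procollagens or process other matrix proteins. Timps block the active site of these enzymes, and Timp3 is the member that stays bound to the matrix and also blocks Adamts proteases. Transcript counts do not measure the activation or inhibition of the proteins.

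Most of the transcript signal came from few of these genes, while a large part of both protease families was near the limit of detection. More than 3 counts in every tumor were found for 27 of the 46 genes. A further 7 genes passed 3 counts in some tumors only, namely Mmp17, Mmp25, Mmp27, Adamts8, Adamts16, Adamts17 and Adamts18. The remaining 12 genes had at most 3 counts in every tumor, and 6 of them had 0 counts throughout, which were Mmp1a, Mmp7, Mmp16, Mmp20, Mmp21 and Adamts13. A count of 0 is compatible with a true level of up to 3 counts, so that levels up to 0.330 to 0.370 CPM (counts per 1e+06, scaled to the effective library size) could not be seen in single tumors. Matrilysin (Mmp7), the membrane-type enzymes Mmp16 and Mmp24, the enamel protease Mmp20, the Vwf-cleaving Adamts13 and Timp4 were therefore not detectable at this depth. Timp4 had 1 count in tumor 3 and none in the other tumors. A mean of at least 1 CPM was reached by 29 genes, 13 Mmp, 13 Adamts and 3 Timp genes, and these were tested for spread. The other 17 genes lay between 0 and 1.11 CPM in every tumor, with Mmp27 (0, 0.929, 1.11 and 0.476 CPM in tumors 1 to 4) and Mmp25 (0.550, 1.05, 0.987 and 0.238 CPM) the highest.

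Scaled to the length of their merged exons, the 3 detected Timp genes held close to as much signal as all protease genes together. The summed level of the Timp genes was 123, 120, 109 and 129 CPM per kb in tumors 1 to 4 (mean 120 ± 8.38, SD, n = 4). The Mmp genes summed to 94.5, 66.0, 80.4 and 79.9 CPM per kb (80.2 ± 11.6), and the Adamts genes to 39.8, 51.0, 48.1 and 48.5 CPM per kb (46.9 ± 4.90). In each of the 4 tumors the order was thus Timp above Mmp above Adamts, and the 3 families did not overlap. The Timp genes made up 48.6% ± 2.2 of the summed level, the Mmp genes 32.4% ± 3.81 and the Adamts genes 19.0% ± 2.62 (SD, n = 4). The log2 ratio of the Timp to the Mmp sum was 0.59 ± 0.22 and above 0 in 4 of 4 tumors (p = 0.13 by an exact sign-flip permutation test, two-sided, the smallest p that 4 tumors allow). The log2 ratio of the Adamts to the Mmp sum was -0.77 ± 0.36 and below 0 in 4 of 4 tumors by the same exact permutation test (p = 0.13), but without scaling to length it was 0.079, because Adamts transcripts are long. Neither ratio could have passed 0.05 with 4 tumors.

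**Figure D1:**
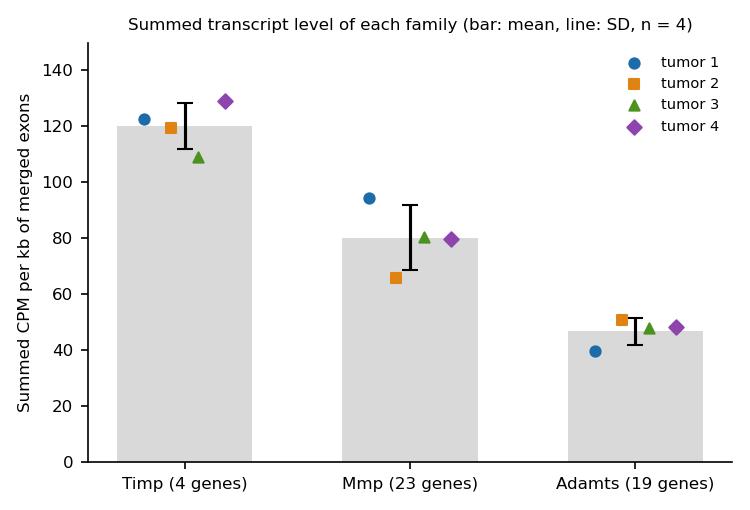
Summed level of the Timp, Mmp and Adamts genes in each of 4 tumors, in CPM per kb of merged exons, with bars for the mean and lines for the SD. The Timp sums lie between 109 and 129, above all Mmp sums (66.0 to 94.5), and these above all Adamts sums (39.8 to 51.0).

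Timp2 and Timp3 had the highest means of all 46 genes on the length-scaled level, with ranks 1 and 2 in 4 of 4 tumors by merged exons. By the length of the longest transcript, Timp3 was above Timp2 on average (79.1 against 59.2 CPM per kb), and Timp2 was below Mmp14 in tumor 1 (50.7 against 72.0). Timp2 (chr11:118301069-118355740, mm10), which also takes part in the activation of Mmp2 by Mmp14, was at 188, 253, 192 and 245 CPM in tumors 1 to 4 (219 ± 34.1, SD, n = 4). Timp3 (chr10:86300372-86349506) was at 350, 308, 365 and 471 CPM (374 ± 69.3). Their highest tumors were only 1.34 and 1.53 times their lowest, yet with at least 1556 counts per tumor this spread was beyond counting noise (chi-square test against Poisson expectations, Benjamini-Hochberg adjusted over 14225 genes, adjusted p = 1.2e-28 and 1.36e-69). Timp1 (chrX:20870166-20874735), the inducible inhibitor, was lower and less even, with 27.9, 15.0, 13.3 and 7.61 CPM (16.0 ± 8.59). Tumor 1 was the highest and tumor 4 the lowest, 3.67 times apart (adjusted p = 4.09e-25, same chi-square test). Because of its short transcript Timp1 still gave 25.7, 14.1, 13.8 and 6.63% of the summed Timp level. As these are bulk samples, fewer cells of a type and less RNA per cell cannot be told apart here or in any value that follows. Timp1, Timp3 and Timp4 lie inside Syn1, Syn3 and Syn2, and exons of Timp3 share 1733 nt with Syn3 on the opposite strand, which had at most 28 counts.

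Among the membrane-type enzymes, Mmp14 stood out by its spread. Mmp14 (chr14:54431612-54445364), a collagenase of the cell surface that activates Mmp2, was at 233, 56.3, 40.6 and 121 CPM in tumors 1 to 4 (113 ± 87.5, SD, n = 4). Tumor 1 was thus 5.75 times tumor 3, and 2.99-fold remained between the other tumors when tumor 1 was left out. Its SD of log2 CPM was 1.13, and its adjusted p was below the smallest value that could be stored and was written as 0 (chi-square test). Mmp14 alone made up 41.4% of the summed Mmp level in tumor 1 but 14.3, 8.47 and 25.5% in tumors 2 to 4. On the length-scaled level it had rank 3 among the 29 genes in tumor 1 and rank 10 in tumor 3. Mmp15 (chr8:95352268-95375080), a related membrane-type enzyme, was ordered differently, with 50.2, 74.5, 111 and 73.9 CPM (77.3 ± 25.0), lowest in tumor 1 and highest in tumor 3 (adjusted p = 1.1e-43, chi-square test). A stretch of 111 nt of Mmp14 is near-identical to a transcript of Pqlc1, which had at most 862 counts. Whether reads of this stretch could be assigned was not tested.

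The gelatinases differed in level and in spread. Mmp2, which degrades denatured collagen and basement membrane collagen, was at 20.7, 11.0, 15.9 and 9.28 CPM (14.2 ± 5.14, SD, n = 4). Mmp9 (chr2:164940780-164955850), the gelatinase of neutrophils and macrophages, had 51, 10, 16 and 5 counts, or 5.61, 1.16, 1.97 and 0.595 CPM (2.34 ± 2.26). Both were highest in tumor 1 and lowest in tumor 4, by 2.23-fold for Mmp2 and 9.44-fold for Mmp9. For Mmp9 tumor 1 decided the range, which was 3.32-fold without it. Both passed the chi-square test (adjusted p = 4.94e-10 for Mmp2 and 1.05e-11 for Mmp9).

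Macrophage elastase and the stromelysins differed widely in level, from a mean of 83.2 CPM for Mmp12 to 2.12 CPM for Mmp10. Mmp12 (chr9:7344381-7369499), the elastase made mainly by macrophages, was at 82.7, 84.1, 115 and 51.0 CPM (83.2 ± 26.1, SD, n = 4). It was highest in tumor 3 and lowest in tumor 4, with tumors 1 and 2 nearly level. Macrophage markers (8 of 8 at a mean of at least 1 CPM, led by Chil3) summed to 281, 348, 1135 and 561 CPM in the same tumors, and 8 of 8 were highest in tumor 3, while 6 of 8 were lowest in tumor 1. Their part in the level of Mmp12 was not tested. Mmp11, the stromelysin of tumor stroma that is activated inside the cell by furin, was at 27.6, 16.6, 37.8 and 41.0 CPM (30.8 ± 11.0). Mmp3, a broad activator of other Mmps, was at 1.54, 5.81, 5.18 and 8.33 CPM (5.21 ± 2.80), and its range of 5.40-fold was 1.61-fold without tumor 1. Tumor 4 was the highest for both genes, whereas the lowest was tumor 2 for Mmp11 and tumor 1 for Mmp3. Mmp10, close in sequence to Mmp3, had 20, 21, 10 and 22 counts (2.12 ± 0.616 CPM), and its spread was not detectable beyond counting noise (adjusted p = 0.252, chi-square test).

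The collagenases gave the largest range of all. Mmp13, the main interstitial collagenase of rodents, was at 27.2, 19.7, 6.79 and 19.6 CPM (18.3 ± 8.47, SD, n = 4). It was low in tumor 3, and the range of 4.00-fold was 1.38-fold without that tumor. Mmp8 (chr9:7558456-7568485), the collagenase stored by neutrophils, had 7, 13, 86 and 17 counts, or 0.770, 1.51, 10.6 and 2.02 CPM (3.73 ± 4.62). Mmp8 was high in tumor 3, the tumor in which Mmp13 was low, with the highest SD of log2 CPM among the 29 genes (1.57) and a range of 13.8-fold that was 2.63-fold without tumor 3. The 6 neutrophil markers summed to 30.3, 47.0, 66.9 and 27.5 CPM, of which Cxcr2 gave 3.08, 15.8, 29.1 and 9.99 CPM, while the defining granulocyte marker Ly6g had 0, 0, 0.247 and 0 CPM. The other markers did not share 1 order, as S100a8 was highest in tumor 1 (10.9, 10.8, 9.38 and 3.81 CPM), S100a9 and Csf3r in tumor 3 and Retnlg in tumor 4 (0.440, 1.28, 2.22 and 3.92 CPM). Their part in the levels of Mmp8 and Mmp9 was not tested. Mmp1a had 0 counts in every tumor and Mmp1b had 3 counts, all in tumor 1, and 157 nt of its exons overlap Mmp12 on the opposite strand.

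Among the other Mmp genes, Mmp19, which cuts basement membrane proteins, was at 7.26, 20.4, 20.2 and 13.4 CPM (15.3 ± 6.30, SD, n = 4). It was lowest in tumor 1, and leaving that tumor out took the range from 2.82-fold to 1.52-fold. Its exons share 789 nt with Tmem198b on the opposite strand, which had at most 176 counts, the same as the highest count of Mmp19. Mmp28, or epilysin, had 10, 59, 23 and 11 counts, or 1.10, 6.85, 2.84 and 1.31 CPM (3.03 ± 2.67). Tumor 2 set its range, which was 6.23-fold with it and 2.58-fold without it. Mmp23, anchored in the membrane by its prodomain, had a mean of 3.02 ± 1.96 CPM and was high in tumors 1 and 4 (3.74 and 5.47 CPM) against tumors 2 and 3 (1.39 and 1.48 CPM).

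**Figure D2:**
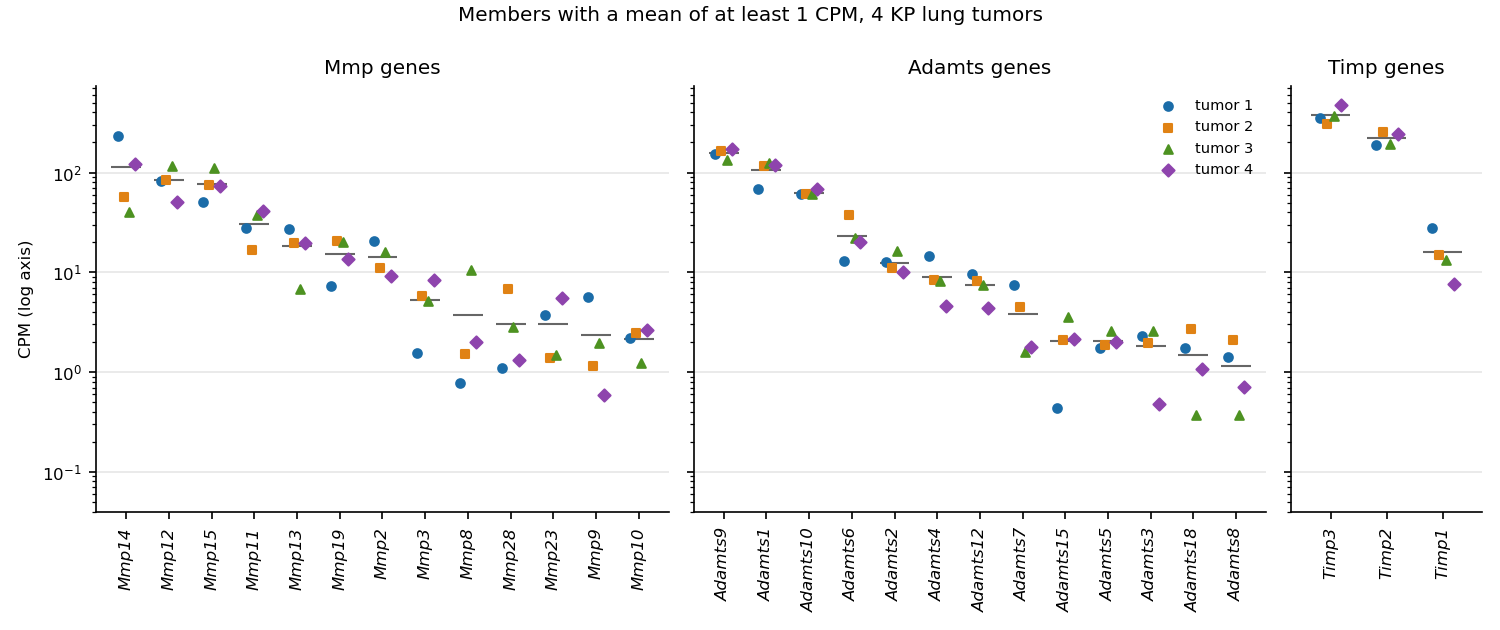
CPM on a log axis of the 29 Mmp, Adamts and Timp genes with a mean of at least 1 CPM, with 1 symbol per tumor and a line at the mean. Timp3, Timp2, Adamts9 and Adamts10 have symbols close together, whereas Mmp14, Mmp8 and Mmp9 spread over 5.75-fold, 13.8-fold and 9.44-fold.

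Many secreted Mmp genes sit side by side in the genome. In these data the cluster on chromosome 9 held 10 genes over 427 kb (chr9:7272514-7699585, mm10), in the order Mmp13, Mmp12, Mmp1b, Mmp3, Mmp1a, Mmp10, Mmp8, Mmp27, Mmp20 and Mmp7. Of these 10 genes 5 reached a mean of 1 CPM, and 3 had 0 counts in all tumors. AP-1, the Fos and Jun dimer through which growth factor and stress signals reach these genes, binds the heptamer TGAGTCA, read as TGACTCA on the other strand. RefSeq promoter windows (250 bases before to 50 after a start, GRCm38.p6) were at hand for 32 of the 46 genes. The heptamer lay in a window of 7 of the 10 cluster genes (70%) and in 0 of the 22 genes outside the cluster that had a window. The share was 5.20% of all 32851 windows and 5.95% of all genes with one. The 14 genes without a window all lie outside the cluster and were not searched, among them Mmp2, Mmp9, Mmp19, Adamts4 and Adamts10. The TATA box letters TATAAA, searched on the strand of the gene, were found in 80% of the cluster genes against 8.32% of all windows, and no other motif was searched. The 110 bases before the start are shown for 6 cluster genes because they place the heptamer beside genes of unlike level. All are on the plus strand and written 5′ to 3′, with the heptamer in capitals, and they cover chr9:7272404-7272513 (Mmp13), chr9:7347264-7347373 (Mmp12, at the downstream of its 2 RefSeq starts), chr9:7445712-7445821 (Mmp3), chr9:7502232-7502341 (Mmp10), chr9:7691980-7692089 (Mmp7) and chr9:7558319-7558428 (Mmp8).
Mmp13: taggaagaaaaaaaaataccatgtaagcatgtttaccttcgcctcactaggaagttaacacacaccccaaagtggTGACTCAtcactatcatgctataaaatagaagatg
Mmp12: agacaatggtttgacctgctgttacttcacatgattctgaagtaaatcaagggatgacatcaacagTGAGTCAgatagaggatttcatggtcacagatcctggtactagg
Mmp3: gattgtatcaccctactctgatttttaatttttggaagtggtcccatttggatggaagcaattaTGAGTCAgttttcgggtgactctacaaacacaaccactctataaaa
Mmp10: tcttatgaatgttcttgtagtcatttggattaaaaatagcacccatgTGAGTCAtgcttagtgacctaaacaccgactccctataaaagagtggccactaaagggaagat
Mmp7: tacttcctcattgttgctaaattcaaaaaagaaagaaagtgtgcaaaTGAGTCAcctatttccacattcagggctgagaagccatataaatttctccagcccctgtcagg
Mmp8: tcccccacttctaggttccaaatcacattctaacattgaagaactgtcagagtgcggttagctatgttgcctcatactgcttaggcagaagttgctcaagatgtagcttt

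The heptamer began 35 bases before the start in Mmp13, 44 in Mmp12, 46 in Mmp3 and 63 in Mmp10 and Mmp7. Genes that held it ranged from Mmp12 at 83.2 CPM to Mmp7 and Mmp1a at 0 counts, so that the letters alone did not sort the cluster by level. The highest cluster genes by mean, Mmp12, Mmp13 (18.3 CPM) and Mmp3 (5.21 CPM), all held it. Mmp8, with no match in its window, had a mean of 3.73 CPM, with 10.6 CPM in tumor 3 and at most 2.02 CPM in the other tumors. The tumors were also ordered differently from gene to gene within the cluster, since tumor 3 was highest for Mmp12 and Mmp8 and lowest for Mmp13. It was also lowest for Mmp10, whose spread was not detectable beyond counting noise. Fos was at 30.5, 23.7, 30.2 and 25.1 CPM and Jun at 33.9, 26.5, 31.7 and 27.5 CPM, both highest in tumor 1. Their 4 companions in the list of dissociation and early response genes (Junb, Egr1, Ier2 and Atf3) lay between 4.18 and 59.4 CPM, and the mean log2 CPM of the list was 4.75, 4.23, 4.16 and 4.34. The tumors were dissociated before RNA was taken, and the part of this step in the Mmp levels was not tested.

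**Figure D3:**
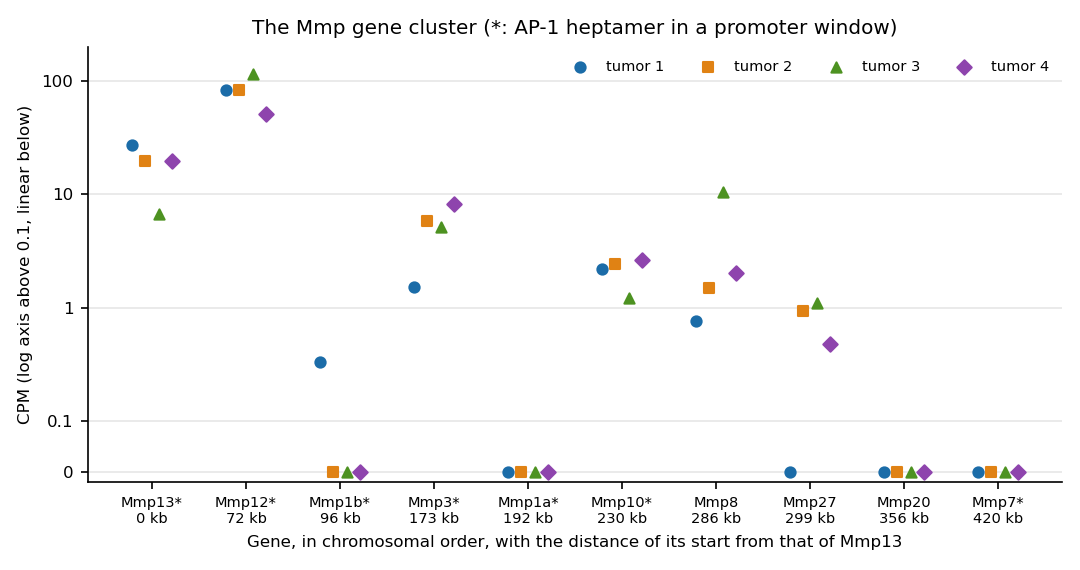
CPM of the 10 genes of the chromosome 9 Mmp cluster in 4 tumors, in chromosomal order with the distance of each start from that of Mmp13 in kb. The vertical axis is logarithmic above 0.1 and linear below, and stars mark the 7 genes with an AP-1 heptamer in a promoter window, which span 0 counts (Mmp7, Mmp1a) to 115 CPM (Mmp12, tumor 3).

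The proteoglycan-cleaving Adamts genes included the highest and some of the lowest genes of their family. Adamts9 (chr6:92772699-92943492), which cuts versican and aggrecan, was the most even of the strongly detected proteases after Adamts10, with 155, 163, 134 and 172 CPM (156 ± 16.2, SD, n = 4). Adamts1 (chr16:85793827-85803113), another versicanase, was at 67.7, 117, 124 and 120 CPM (107 ± 26.4). Tumor 1 stood apart for Adamts1, and without it the highest tumor was only 1.06 times the lowest. Adamts4, known as aggrecanase 1, was at 14.6, 8.36, 8.27 and 4.64 CPM (8.98 ± 4.15), so that tumor 1 was highest for Adamts4 and lowest for Adamts1. Adamts15 had 4, 18, 29 and 18 counts, or 0.440, 2.09, 3.58 and 2.14 CPM (2.06 ± 1.28), and its range of 8.13-fold was 1.71-fold without tumor 1. These genes all passed the chi-square test, with adjusted p from 1.31e-36 for Adamts1 to 0.000186 for Adamts15. Adamts5, known as aggrecanase 2, was at 2.06 ± 0.372 CPM and did not pass (adjusted p = 0.664, chi-square test). Adamts8 was at 1.15 ± 0.766 CPM, and Adamts20 had 4 counts in all. Exons of Adamts9 share 1381 nt with A730049H05Rik on the opposite strand, which had up to 61 counts.

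The other Adamts genes with a mean of at least 1 CPM included enzymes of procollagen trimming and of cartilage and microfibril matrix. Adamts2, the main procollagen N-proteinase, was at 12.5, 11.0, 16.2 and 10.1 CPM (12.5 ± 2.66, SD, n = 4). Adamts3 was at 2.31, 1.97, 2.59 and 0.476 CPM, with tumor 4 apart on the low side at 4 counts. Adamts14, the remaining N-proteinase, stayed at or below 3 counts. Of the Comp-cleaving pair, Adamts12 was at 9.68, 8.13, 7.40 and 4.40 CPM (7.40 ± 2.22) and Adamts7 at 3.85 ± 2.77 CPM. Tumor 1 was highest for both, and exons of Adamts7 share 122 nt with Tbc1d2b on the opposite strand (up to 1026 counts). Adamts10 (chr17:33524204-33553782), which acts on fibrillin microfibrils, was the most even of the 29 genes, with 60.4, 60.6, 61.5 and 67.7 CPM (62.5 ± 3.45). Its spread was not detectable beyond counting noise (adjusted p = 0.21, chi-square test). Its close relative Adamts6 was at 13.0, 37.5, 22.2 and 20.3 CPM (23.3 ± 10.3), highest in tumor 2 and lowest in tumor 1 (adjusted p = 3.93e-25, chi-square test). Adamts18 had 16, 23, 3 and 9 counts, or 1.76, 2.67, 0.370 and 1.07 CPM, and its range of 7.22-fold was 2.50-fold without tumor 3.

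On the length-scaled level the order of the means ran from Timp2 (56.3 CPM per kb) and Timp3 (45.9) through Adamts1 (20.2), Mmp14 (18.9), Timp1 (18.0), Mmp15 (14.3), Mmp12 (11.5), Mmp11 (11.1), Adamts9 (10.3), Adamts10 (7.58) and Mmp13 (6.86) to Mmp19 (4.34) and Mmp2 (4.22). Each of the other 16 tested genes was lower, down to Adamts18 at 0.144 CPM per kb. Of the 28 pairs of neighbors in this order, 3 kept their order in 4 of 4 tumors, namely Timp2 over Timp3, Timp3 over Adamts1 and Adamts9 over Adamts10. By the length of the longest transcript, Timp3 stayed above Adamts1 and Adamts9 above Adamts10 in 4 of 4 tumors, but other genes lay between them. Timp3 was then above Timp2 in tumors 1, 3 and 4. The neighbors of constant order were 2 other pairs (Mmp19 over Adamts6 and Adamts8 over Adamts18). Which genes were neighbors, and the order of Timp2 and Timp3, thus depended on the length used. By merged exons, the other 25 changed places in at least 1 tumor, so that the places of Mmp14, Timp1, Mmp15, Mmp12 and Mmp11 relative to their neighbors differed by less than the spread between tumors. No pair could pass the exact two-sided sign-flip permutation test (smallest p = 0.13, adjusted p = 1).

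Read against the whole transcriptome, the 29 tested genes had a wider median spread between tumors and a lower median level than all genes tested. By the chi-square test 26 of 29 (89.7%) varied beyond counting noise, whereas the share over all 14225 genes tested was already 76.7%. The 3 that did not pass were Adamts5, Adamts10 and Mmp10. A range above 2-fold was found for 22 of 29 (75.9%), against 28.5% of all genes tested, and without tumor 1 for 13 of 29, against 18.0%. The median SD of log2 CPM was 0.67 for the 29 genes and 0.29 for all genes tested, and the median biological coefficient of variation estimated by edgeR was 38.9% against 25.7%. The median of the mean CPM was 12.5 against 27.4, and genes of low level carry more counting noise. At a mean of at least 5 CPM, 12 of 18 had a range above 2-fold, against 20.2% of all genes at that level. The spread was unequal between the families, with a median SD of log2 CPM of 0.87 over 13 Mmp genes, 0.63 over 13 Adamts genes and 0.26 over 3 Timp genes. Within the Timp genes it was 0.77 for Timp1, 0.23 for Timp2 and 0.26 for Timp3, and the families were not matched for level. These figures are descriptions of 4 libraries, and the chi-square test does not separate technical from biological spread.

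**Figure D4:**
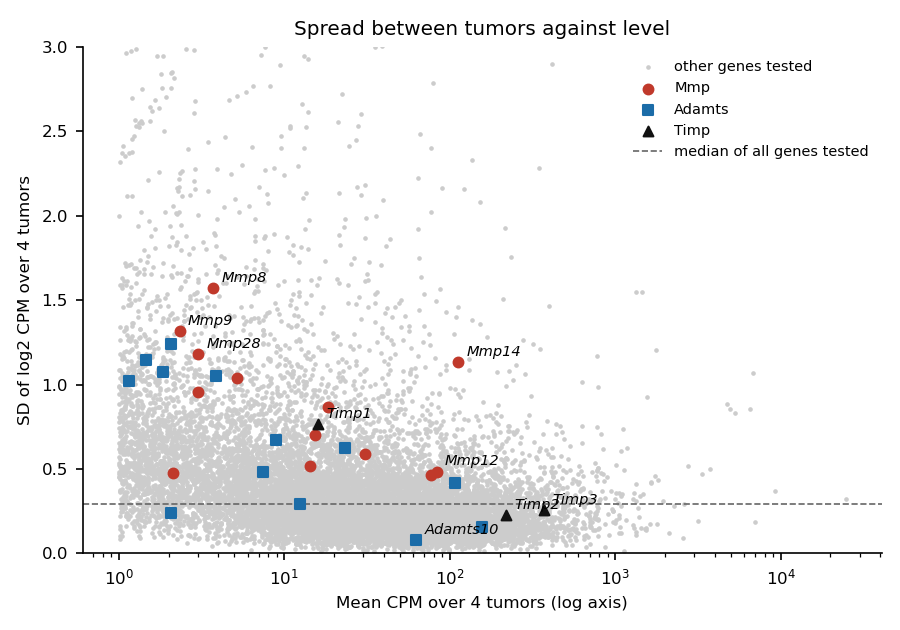
SD of log2 CPM over 4 tumors against the mean CPM (log axis) for 14225 genes, with the 29 Mmp, Adamts and Timp genes in color and a dashed line at the median SD of all genes tested (0.29). Mmp8 (1.57), Mmp9 (1.32) and Mmp14 (1.13) lie high, Timp2, Timp3 and Adamts10 lie below the line, and 62 genes above an SD of 3 are off the plot.

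No tumor was the highest or lowest for most of these genes. Tumor 1 was the highest for 8 and the lowest for 11 of 29 genes, tumor 2 for 6 and 3, tumor 3 for 8 and 7, and tumor 4 for 7 and 8. The shares highest in tumors 1 to 4 were 27.6, 20.7, 27.6 and 24.1%, beside 31.4, 20.4, 30.2 and 18.0% of all genes tested. The shares lowest in tumors 1 to 4 were 37.9, 10.3, 24.1 and 27.6%, beside 30.4, 19.4, 32.5 and 17.7%. By Dixon's 95% limit for 4 samples, 1 tumor was separated from the rest for Adamts1 (tumor 1, low), Adamts10 (tumor 4, high) and Adamts3 (tumor 4, low), 10.3% of 29 genes against 5.86% of all genes tested. With DESeq2 size factors Adamts10 was no longer among them, and with library size only Adamts1 alone was (3.45% of 29 genes). Timp1, Adamts4 and Adamts12 shared the same ranking of the tumors, highest in tumor 1 and then in tumors 2, 3 and 4, and so did Col1a1, Fn1, Lrp1 and Vwf among the 32 pathway genes tested. This ranking was set by Timp1 and looked at after the values were seen. It was found in 3 of the 29 genes (10.3%) and in 3.78% of all genes tested. Timp1 is counted in both shares by definition, so that they cannot be compared as they stand.

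Further genes of the pathway were taken from lists of activators, other inhibitors and clearance factors, substrates and related proteases. Of these 38 genes, 32 were tested and 28 (87.5%) varied beyond counting noise, beside 76.7% of all genes tested. Among the activators 5 of 6 tested did. Furin, which cuts the precursors of Mmp11, the membrane-type enzymes and the Adamts proteases, was at 132, 85.5, 56.5 and 78.9 CPM, and like Mmp14 it was highest in tumor 1 and lowest in tumor 3. Plau, the urokinase that makes plasmin, was at 62.9, 31.8, 48.5 and 21.8 CPM, the same order of tumors as Mmp2. These matches were noted after the values were seen, and the share of all genes with either pattern was not counted. Tumor 1 was highest for 31.4% and tumor 3 lowest for 32.5% of all genes tested. Of the 6 tested activators, 3 were highest in tumor 1, 2 in tumor 3 and 1 in tumor 2, namely Pcsk6 (217, 243, 138 and 148 CPM). Among the other inhibitors and clearance factors 5 of 6 tested varied. The membrane-anchored Mmp inhibitor Reck did not pass (adjusted p = 0.303, chi-square test). Among the substrates 11 of 11 tested varied. Col1a1 was at 125, 66.9, 49.4 and 32.2 CPM and fibronectin (Fn1) at 1314, 958, 593 and 518 CPM, both highest in tumor 1 and lowest in tumor 4. Vcan, the proteoglycan cut by Adamts1, Adamts4 and Adamts9, was at 136, 285, 8.76 and 56.1 CPM. Over the same tumors Adamts1, Adamts4 and Adamts9 differed by 1.83-fold, 3.15-fold and 1.28-fold. Aggrecan (Acan) and Comp had at most 2 counts in any tumor. Among the related proteases 7 of 9 tested varied, and Adam8 and Adam12 did not (adjusted p = 0.445 and 0.654, chi-square test), while the macrophage cathepsin Ctss was at 176, 225, 396 and 269 CPM.

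Markers of the tissue were measured in the same libraries. The tumors expressed the epithelial genes of alveolar type 2 cells strongly, with a mean log2 CPM over 6 of 6 markers of 10.80, 11.83, 11.65 and 11.89, and 4 of the 6 were lowest in tumor 1, while Sftpb and Abca3 were lowest in tumor 3. Of the 4 epithelial markers Epcam, Krt8 and Krt18 were highest in tumor 1 and Cdh1 was lowest there (842, 887, 846 and 876 CPM), and the mean log2 CPM of the list was 9.89, 9.30, 9.11 and 9.29. Tumor 1 was thus the extreme of the mean of both lists, though not of every gene in them. Fibroblast markers (7 of 8 tested, Tcf21 under 1 CPM) summed to 229, 195, 384 and 237 CPM, with 4 of 7 (Pdgfra, Dcn, Thy1 and Postn) highest in tumor 3. Pdgfrb and Fap were highest in tumor 1 and Lum in tumor 2. Of the 7 tested, 6 varied beyond counting noise. Fap, with 15, 12, 5 and 6 counts, did not (adjusted p = 0.135, chi-square test). Endothelial markers (6 of 6, of which 4 were highest in tumor 3) summed to 200, 208, 277 and 209 CPM, and smooth muscle markers (3 of 4) to 13.2, 12.5, 22.8 and 8.80 CPM. Pan-leukocyte markers (3 of 3) summed to 77.0, 98.3, 188 and 109 CPM, T cell markers (2 of 3) to 1.76, 1.86, 16.5 and 3.09 CPM and B cell markers (1 of 3) to 5.61, 13.0, 16.8 and 17.1 CPM, with the leukocyte and T cell sums highest in tumor 3. Of the mesothelial markers (2 of 3 tested), Msln was at 33.7, 15.8, 18.4 and 109 CPM, highest in tumor 4, whereas Upk3b was highest in tumor 2 (2.53, 2.90, 0.864 and 1.31 CPM) and Wt1 had at most 6 counts. Mast cell markers stayed under 1 CPM in all tumors. The part of these cell types in the spread of the protease and inhibitor genes was not tested.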

How the data were processed

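The data are the transcript counts of 4 tumors in 1 group, numbered as the labels number the replicates. The genes and lists described here were chosen with earlier results of these data known. The submitters' processing notes name bcl2fastq 2.17, cutadapt 1.4.2, HISAT2, the mm10 genome, featureCounts 1.4.4 and edgeR. The strand setting and annotation release are not given in the sources used here, so that reads of opposite-strand exon overlaps may not be separable, although the kit was stranded. The authors deposited raw counts without normalization, and 156068 of 156068 values were equal between the combined and the per-tumor tables. The authors also deposited log2 values (TMM and voom), which served as an alternative.

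Each total count was multiplied by its TMM factor (edgeR 4.0.16, R 4.3.3) to give the effective library size. Log2 CPM had 0.5 added to each count. Genes with a mean of at least 1 CPM were tested for spread with a chi-square statistic that sets the counts of the 4 tumors beside Poisson expectations (3 degrees of freedom), Benjamini-Hochberg adjusted over 14225 genes with a threshold of 0.05, after a check on simulated data. Lengths and positions came from GENCODE M21, in which 46 of 46 genes and 37607 of 39017 IDs matched, and near-identical stretches (at least 80 nt at 97% identity) from BLAST 2.17.0. Of 101 list genes, 3 were matched by identifier. Genes were given tumor by tumor at a mean of at least 5 CPM or with one of the 5 largest SDs of log2 CPM. Values of Adamts3, Mmp10, Mmp23, Mmp25 and Mmp27 by tumor were added after they were seen. The tumors may share a mouse, so that p-values measure only the spread between these samples. Reads carried no molecular identifiers, so the limit of 3 counts covers counting error only. Alternatives were DESeq2 1.42.0 size factors, library size only, other filters, a likelihood-ratio statistic, an adjusted p under 0.01, 2 added to each count, transcript lengths and leaving out each tumor.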

Additional observations from a re-analysis of the deposited data

Results flagged for a closer look

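In 6 of 47 results tested for this, 1 tumor lay far from the other three, past Dixon's 95% limit for 4 samples, which chance passes in about 1 in 20. Adamts1 was low in tumor 1 at 67.7 CPM, Adamts10 was high in tumor 4 at 67.7 CPM, and Adamts3 was low in tumor 4 at 0.476 CPM, which was 4 counts. Adamts10 did not vary beyond counting noise (adjusted p = 0.21, chi-square test), so the separation rests on a range of 1.12-fold. The other 3 were lists with tumor 3 on the high side, with a mean log2 CPM of 6.47 for the related proteases, 2.71 for the T cell markers and 5.15 for the endothelial markers. Lists and genes share their libraries, so the results are not independent of each other.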

How the results depend on the processing

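The count of genes that varied beyond counting noise was 26 of 29 under DESeq2 size factors, library size only, the likelihood-ratio statistic and an adjusted p under 0.01, as in the report. The shares over all genes tested were 76.6, 77.3, 76.7 and 68.6% in these settings. With no filter it was 27 of 40, against 53.5% of all genes. At a mean of at least 5 CPM it was 17 of 18, against 82.5% of all genes, and a range above 2-fold was found for 12. Fewer genes were tested at a mean of at least 5 CPM. Over all genes the share with a range above 2-fold was also lower there, 20.2% against 28.5%. The part of each in the lower counts was not tested. Leaving out each tumor gave 22 of 29 (without tumor 3) to 25 of 28 genes (without tumor 2) that varied. The share over all genes also went down, to 62.4 and 71.2%. A range above 2-fold was found for 13 of 29 (without tumor 1) to 19 of 28 genes (without tumor 2), against 18.0 and 24.2% of all genes. The pairs of neighbors with a constant order were 4 to 6. The longest transcript gave 2 such pairs, and these alternatives for the order were chosen after seeing the data. The count with 1 tumor apart was 2 of 29 with DESeq2 size factors and 1 of 29 with library size only, against 5.92 and 5.81% of all genes. It was 6 of 40 with no filter, where the share over all genes was not counted. The cause was not tested. Without length scaling the Timp share was 44.2%, and the log2 ratio of Adamts to Mmp was 0.079 (exact sign-flip permutation p = 0.625), because Adamts transcripts are longer. The scalings moved the median of all genes by at most 0.047 on the log2 scale. No paired analysis was possible because the study has 1 group. Depth limits what can be said of genes at or under 3 counts. A gene near 1 CPM could pass the filter through its highest tumor.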
